A study of Mus musculus with 53 samples.

Results

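The intestinal mucins described here are 6 genes, Muc1, Muc2, Muc4, Muc13, Muc16 and Muc20, chosen by name as the rows of the count table whose Ensembl identifiers carry these symbols. They make up 6 of 55421 gene rows and were read in all 53 RNA-seq libraries and all 11 groups of mouse intestine, each mutant group against its own wild type (WT). All mice carried VilCreER, a tamoxifen-activated Cre recombinase driven by the villin promoter and so active in intestinal epithelium and not in stroma, and WT mice carried VilCreER alone. Tissue was taken whole, so that in every result fewer cells of a type and less RNA per cell cannot be told apart.

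BA mice carried BrafV600E/+, which activates the BRAF kinase, together with Alk5fl/fl, which deletes the TGFβ receptor ALK5, and A mice carried Alk5fl/fl alone. Proximal colon was sampled 30 days after induction from 4 WT, 4 A, 5 BA, 5 BA mice given antibiotics and 4 A mice given sulindac, a non-steroidal anti-inflammatory drug. The antibiotics were ampicillin, neomycin and metronidazole at 1 g/L each and vancomycin at 500 mg/L in drinking water from the day after induction, and sulindac was given at 0.4 g/L for 14 days and then withdrawn. The colon set also holds 4 BA primary tumours and 3 undated WT proximal colon samples. The small intestine (SI) set holds 10 Apcfl/fl and 6 WT samples at day 4, which address acute loss of the Wnt-pathway suppressor APC, and 5 primary tumours of Apcfl/+ mice beside 3 undated WT samples. The WT SI and Apcfl/+ tumour mice were labelled as inbred C57BL6/J and all others as mixed C57BL/6J; the mice were induced as adults.

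Mucins are large glycoproteins whose serine- and threonine-rich stretches carry dense O-linked sugars. Muc2 is secreted by goblet cells and polymerises into the gel that separates bacteria from the colonic epithelium. Muc1, Muc4, Muc13, Muc16 and Muc20 are membrane-bound; Muc13 is abundant on the apical surface of intestinal cells, Muc1 and Muc4 also bind signalling proteins, and Muc16 is best known as the source of the tumour marker CA125 and as a mesothelial and ocular surface mucin.

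Between 516985 and 32824795 reads per library fell on genes, and apart from Apcfl/fl replicate 1, which has the lowest total, every library held at least 10005066. Car1, a colonocyte carbonic anhydrase, ran from 997.8 to 25809 normalised CPM (read counts scaled to library size) in the 29 colon libraries and from 0 to 171 in the 24 SI libraries. The brush border enzyme Sis ran from 6.32 to 7225 in SI, with a median of 1058, and from 0.301 to 217 in colon, with a median of 3.51, so its ranges overlapped. Lct reached 159.7 normalised CPM in a BA tumour and Apoa1 362, so some colon libraries held SI markers; their part in the results was not tested. Apcfl/+ tumour replicate 2 stood apart from its label in one respect, a summed level of 8 enterocyte markers of 207.5 against 8426 to 15984 in the other 4 tumours. No 2 libraries held identical counts. The authors describe a batch term in the model behind their gene signatures, but the labels assign no library to a batch, so none was fitted. The p-values therefore set each group difference only against the spread within groups. Any batch difference between groups is part of the fitted difference and is not covered by the p-value. The predicted gene Gm13394 exceeded 10 CPM in every BA and A library at day 30 and in 0 of 4 WT day 30 libraries, and in 3 of 4 BA tumours against 0 of 3 undated WT colon samples. The split ran the other way in 3 of 3 undated WT SI samples against 0 of 5 Apcfl/+ tumours, and at day 4 the counts were 6 of 10 Apcfl/fl and 3 of 6 WT; its part in the results was not tested.

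Of the 6 genes, 3 lie on chromosome 16 of GRCm38. Muc4 and Muc20 adjoin there, whereas Muc13 lies apart from them, between Heg1 and Itgb5. Muc4 (chr16:32735886-32782391, plus strand) and Muc20 (chr16:32777419-32797435, minus strand) meet tail to tail and share 627 exonic bases, and Muc13 (chr16:33794037-33819934) overlaps the predicted gene Gm15657 by 184 exonic bases. Since the library kit does not mark strand and the counting setting was not given in the sources used here, reads from these overlaps cannot be assigned with certainty; they cover 13.13% of the 36-base words of Muc20 and 4.917% of those of Muc4. Muc2 (chr7:141690340-141754693) lies between Muc6 and Muc5ac, Muc1 is at chr3:89229057-89233381, and Muc16 (chr9:18495455-18674530, minus strand) spans 86 exon blocks. These last 3 genes share no 36-base exonic word with another gene.

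The 250 bases before the start site are shown for the 4 mucins that passed the edgeR test in at least 1 of the 10 comparisons described further on. They are RefSeq windows of build GRCm38.p6, found for all 6 members, written 5′ to 3′ on the strand of the gene. Capitals mark matches, on either strand, to AP-1 (TGANTCA), TEAD (GGAATG), TCF/LEF (ATCAAAG), CDX (TTTATNG) or HNF4 (CAAAGTCCA).
Muc16: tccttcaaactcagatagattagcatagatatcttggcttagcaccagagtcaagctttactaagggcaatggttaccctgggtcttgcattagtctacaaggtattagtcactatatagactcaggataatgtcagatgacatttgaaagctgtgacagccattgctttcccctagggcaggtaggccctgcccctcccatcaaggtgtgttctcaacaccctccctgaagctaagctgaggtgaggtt
Muc4: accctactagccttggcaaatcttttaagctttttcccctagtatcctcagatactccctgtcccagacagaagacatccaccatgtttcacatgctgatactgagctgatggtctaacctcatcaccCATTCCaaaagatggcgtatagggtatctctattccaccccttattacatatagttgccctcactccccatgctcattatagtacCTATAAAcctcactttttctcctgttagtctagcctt
Muc13: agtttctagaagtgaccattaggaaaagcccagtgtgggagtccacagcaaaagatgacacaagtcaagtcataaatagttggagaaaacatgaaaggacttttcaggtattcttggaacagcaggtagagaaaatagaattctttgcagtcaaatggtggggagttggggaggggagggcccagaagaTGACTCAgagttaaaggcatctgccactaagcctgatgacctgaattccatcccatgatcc
Muc2: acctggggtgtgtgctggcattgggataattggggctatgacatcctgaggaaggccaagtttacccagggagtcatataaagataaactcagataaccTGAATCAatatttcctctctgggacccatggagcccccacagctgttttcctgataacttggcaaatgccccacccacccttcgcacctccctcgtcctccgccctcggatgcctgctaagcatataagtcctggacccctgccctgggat
The Muc16 window (chr9:18674604-18674853, minus strand) holds none of these letters. The Muc4 window (chr16:32735636-32735885) holds a TEAD and a CDX match, beginning 122 and 37 bases before the start. AP-1 matches stand 61 bases before the start of Muc13 (chr16:33793787-33794036) and 151 bases before that of Muc2 (chr7:141690090-141690339). The window of Muc1 (chr3:89228806-89229055), which DESeq2 called in 2 comparisons and edgeR, as fitted here, in none, is not printed and holds a TEAD match 132 bases before the start. A second RefSeq start of Muc13, whose window is chr16:33794239-33794488, has an AP-1 match that overlaps an HNF4 match. Among 32851 windows of this length in the reference, 6.75% held the AP-1 letters, 12.6% TEAD, 9.81% CDX, 3.21% TCF/LEF and 0.384% HNF4. A match describes letters and no binding.

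As TPM, reads scaled to exon length and to the library total, which is the only scale on which levels are compared between genes, Muc2 and Muc13 stood far above the other members. In WT colon at day 30 the median TPM was 1861 for Muc13 and 1381 for Muc2, followed by Muc4 at 25.7, Muc16 at 6.22, Muc20 at 0.933 and Muc1 at 0.861. The last pair had overlapping ranges, from 0.552 to 1.12 and from 0.451 to 1.15, and the ranges of Muc2 and Muc13 overlapped as well. In WT SI at day 4 the order was Muc13 at 2413, Muc2 at 351.6 and Muc4 at 9.21, with Muc1, Muc20 and Muc16 all under 1. Muc2 took a median of 0.361% of gene reads in WT colon at day 30 and 0.0989% in WT SI at day 4, whereas Muc13 took 0.203% and 0.284%. Muc1 and Muc20 rested on few reads, from 5 to 26 and from 5 to 34 per library in the WT groups, which limits what could be detected for them.

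**Figure D1:**
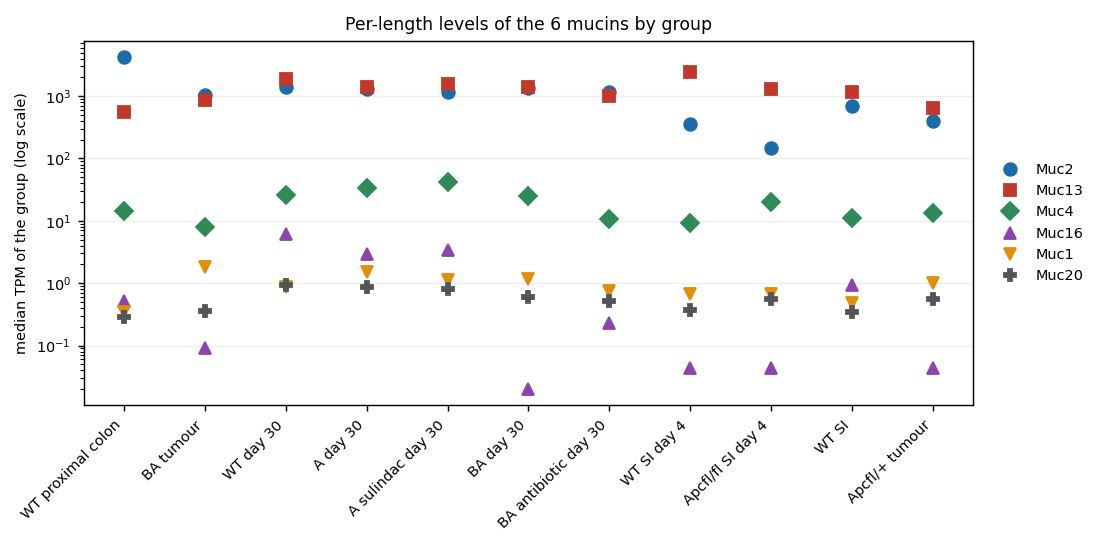
Median TPM (log axis) of each mucin in each of the 11 groups, 1 symbol per gene. Muc2 and Muc13 lie above 100 TPM in every group, and Muc16 (triangles) ranges from 0.0202 in BA colon at day 30 to 6.22 in WT colon at day 30.

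Among WT groups, Muc16 differed by site and set. It was read at 30.0, 44.7, 71.8 and 90.8 normalised CPM in WT colon at day 30, at 1.35, 6.29 and 69.9 in the undated WT proximal colon, at 1.57, 9.09 and 11.4 in undated WT SI, and between 0.0883 and 1.87 in WT SI at day 4. The undated WT colon also held more Muc2, at 4330, 13315 and 22018 normalised CPM, than WT colon at day 30, at 2602, 2871, 4287 and 6041. Only 1 of the 3 undated libraries fell within the day 30 range. The 2 sets were therefore compared only with their own mutant groups.

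**Figure D2:**
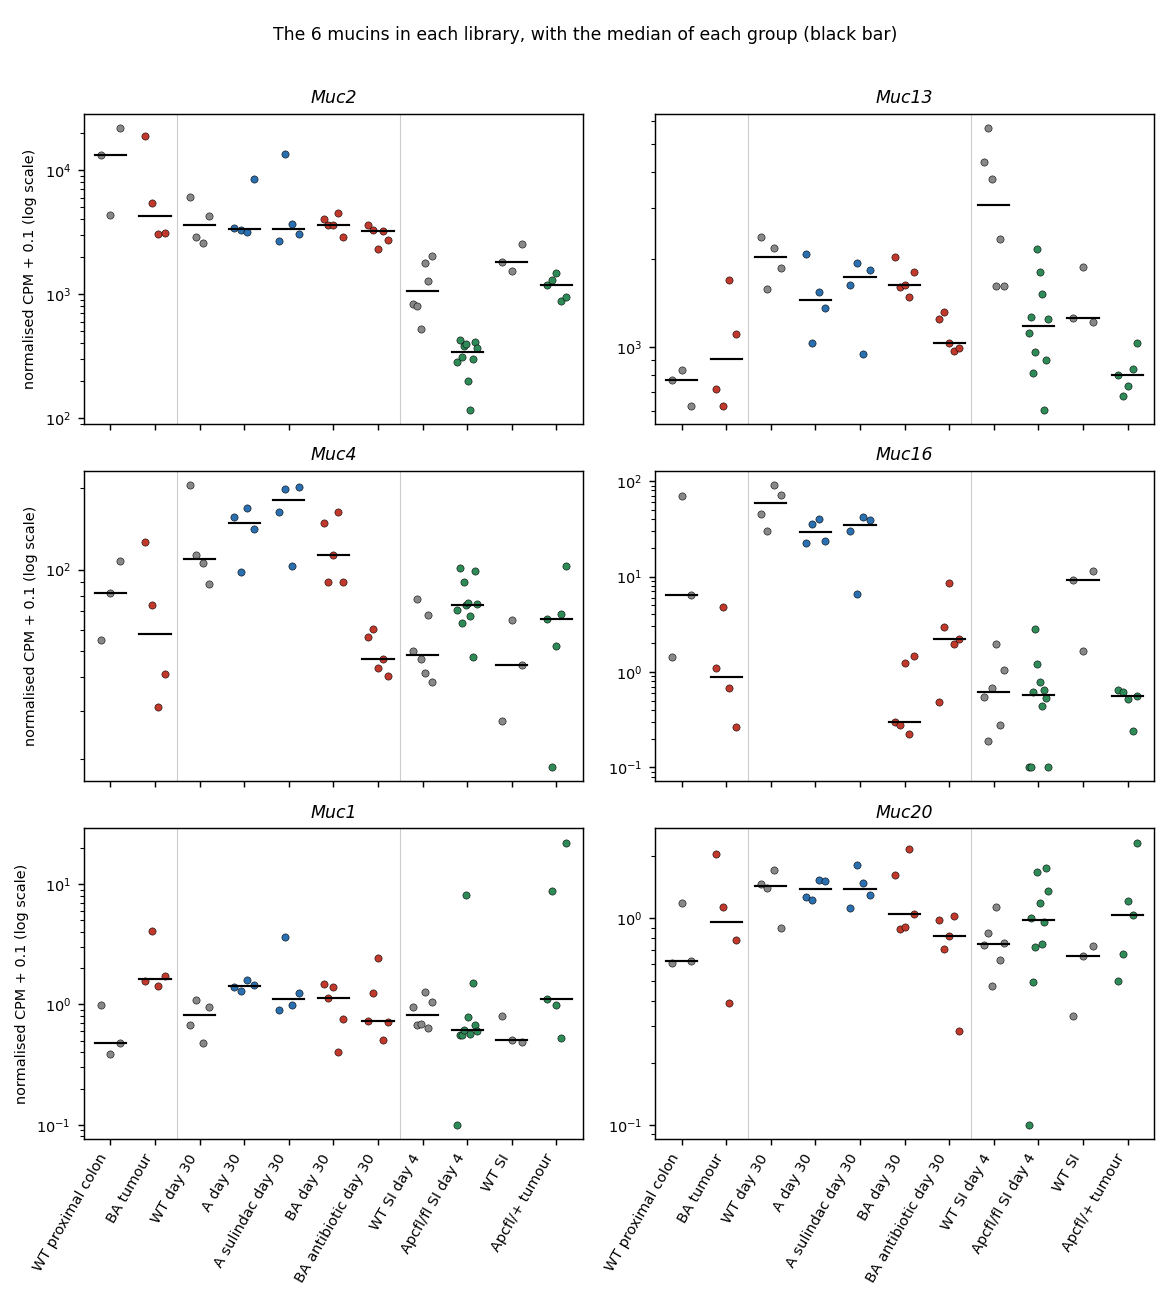
Normalised CPM plus 0.1 (log axis) of the 6 mucins in each of the 53 libraries, with points coloured by genotype class (grey WT, blue A, red BA, green Apc) and a black bar at the median of each group. Every BA day 30 library lies below every WT day 30 library for Muc16, and every Apcfl/fl library lies below every WT SI day 4 library for Muc2.

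BA colon at day 30 addresses the early effect of BRAF activation with ALK5 loss, before tumours. Muc16 was almost lost, and the other 5 mucins did not pass the test. Muc16 was read at 0.122, 0.181, 0.199, 1.14 and 1.36 normalised CPM in the 5 BA mice, on 2 to 23 reads each, against 30.0 to 90.8 in the 4 WT mice, on 574 to 1916 reads. The groups did not overlap, and the highest BA value was far below the lowest WT value. The fitted difference was a log2 fold change of -6.62 ± 0.49 (SE), a 98.6-fold decrease (adjusted p = 1.26e-06, edgeR quasi-likelihood test). Thus 0 of 6 mucins rose and 1 fell, where 25.8% of 17471 genes tested rose and 29.3% fell, so the count of members is no larger than the background.

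Muc2 had a mean of 3728 ± 588 normalised CPM (SD, n = 5) in BA and 3950 ± 1578 (n = 4) in WT, a log2 fold change of -0.05 ± 0.22 (SE; adjusted p = 0.862). Muc4 averaged 121 and 128 normalised CPM in BA and WT (log2 fold change -0.05 ± 0.25), and Muc13 1712 and 2007 (log2 fold change -0.20 ± 0.12, adjusted p = 0.188). The BA and WT ranges of these genes overlapped. Muc1 and Muc20 differed by 0.42 ± 0.42 and -0.02 ± 0.32 on the log2 scale.

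Markers of tissue makeup moved as well. The summed level of 10 epithelial markers was 26393 to 30479 normalised CPM in BA and 13665 to 16133 in WT, and all 10 rose, whereas 6 of 8 smooth muscle and 7 of 10 stromal markers fell, and 1 of 8 colonocyte markers rose and 6 fell. When libraries were scaled to the epithelial markers instead of all genes, the median of all genes shifted to -1.05 on the log2 scale, and Muc2 (-1.08), Muc4 (-1.06), Muc13 (-1.24) and Muc20 (-1.02) all fell past the threshold with Muc16 at -7.67. All but Muc16 lay close to that shift. The share of all genes called under this scaling is not given here. Mesothelial markers ran from 24.6 to 41.9 in sum in BA and from 8.59 to 17.2 in WT, with Msln and Upk1b higher and Upk3b, Gpm6a and Rspo1 lower among 5 tested of 8. The defining markers Upk3b and Lrrn4 were low in both groups, at most 4.13 and 1.5 normalised CPM, and the part of these cells in the Muc16 difference was not tested.

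Set against A colon at the same day, which isolates BRAF activation on the ALK5-deleted background, Muc16 was again the one member past the threshold. A mice held 22.4, 23.3, 35.2 and 39.8 normalised CPM, above all BA values, and the log2 fold change of BA against A was -5.63 ± 0.47 (SE), a 49.5-fold decrease (adjusted p = 8.26e-06, edgeR). None of the 6 rose (background 21.7%) and 1 fell (background 23.6% of 17128 genes). The other 5 differed by between -0.50 (Muc1) and 0.22 (Muc13) on the log2 scale, with adjusted p from 0.272 to 0.951. Under epithelial scaling all 6 fell past the threshold and Muc13 turned to -0.66, beside a median of all genes of -0.99. The share of all genes called under it is not given here, so this count is not read as a result about mucins. The BA comparisons with WT and with A share the BA libraries.

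ALK5 loss alone, A against WT at day 30, gave 0 mucins past the threshold in either direction by edgeR or DESeq2, beside a background of 0.096% higher and 0.0452% lower among 17713 genes. Before adjustment 2 mucins had p under 0.05. Muc1 was read at 1.19 to 1.5 normalised CPM in A and 0.379 to 0.994 in WT, ranges that did not overlap, on 8 to 26 reads (log2 fold change 0.96 ± 0.31, adjusted p = 0.47). Muc16 ran from 22.4 to 39.8 in A and from 30.0 to 90.8 in WT, with overlapping ranges (log2 fold change -0.95 ± 0.32, adjusted p = 0.48). The other differences were 0.24 ± 0.36 for Muc2, 0.17 ± 0.26 for Muc4, -0.38 ± 0.23 for Muc13 and 0.04 ± 0.26 for Muc20, and that of Muc2 turned to -0.23 without A replicate 4.

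No difference with sulindac was detected for any mucin of A colon. Against untreated A, 0 of 6 mucins and 0 of 17568 genes passed the edgeR test (background 0 in both directions), with 0 mucins and 460 genes at an unadjusted p under 0.05 and 7 genes called by DESeq2. The fitted differences of the 6 ran from -0.05 ± 0.45 (SE, Muc16) to 0.30 ± 0.55 (Muc2) on the log2 scale. Without A sulindac replicate 2 the Muc2 difference turned to -0.58 and that of Muc1 from 0.25 to -0.53, and without A replicate 4 that of Muc2 was 0.77. Against WT, 0 of 6 passed by edgeR or DESeq2, 1 at an unadjusted p under 0.05 (Muc1, log2 fold change 1.2 ± 0.52, adjusted p = 0.548), beside 0.0507% of 17742 genes higher and 0 lower. Without A sulindac replicate 2 that Muc1 difference was 0.43, and that of Muc2 turned from 0.53 ± 0.51 to -0.33. Muc4, Muc13, Muc16 and Muc20 differed from WT by 0.37, -0.34, -1.01 and 0.06. Both A groups held 1 mouse with far more Muc2, at 8463 normalised CPM in A replicate 4 against 3173 to 3408 in the others, and at 13402 in A sulindac replicate 2 against 2667 to 3674.

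Antibiotic treatment of BA mice was accompanied by lower Muc4 and Muc13, both membrane mucins. Muc4 was read at 40.5, 43.1, 46.8, 56.2 and 60.1 normalised CPM in treated BA mice and at 89.8, 90.2, 113, 149 and 164 in untreated ones. The groups did not overlap, and the log2 fold change was -1.31 ± 0.18 (SE), a 2.48-fold decrease (adjusted p = 0.00147, edgeR). Muc13 was read at 965, 993, 1029, 1247 and 1322 normalised CPM in treated mice and at 1483 to 2037 in untreated ones, again without overlap (log2 fold change -0.64 ± 0.11, adjusted p = 0.00442). With all 5 day 30 groups in 1 fit the Muc13 difference no longer passed (adjusted p = 0.0565). Of 6 mucins 0 rose (background 4.53% of 16680 genes) and 2 fell (background 8.5%).

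Muc2 averaged 3044 ± 524 normalised CPM (SD, n = 5) with antibiotics and 3728 ± 588 (n = 5) without, a difference of -0.31 ± 0.14 (SE) on the log2 scale that did not pass (adjusted p = 0.154). Muc20, which shares exonic bases with Muc4, differed by -0.89 ± 0.39 (adjusted p = 0.15) on 3 to 34 reads per library, and Muc1 by 0.16 ± 0.51. Muc16 was read at 0.38, 1.85, 2.14, 2.85 and 8.36 normalised CPM in treated mice, overlapping the untreated range (log2 fold change 2.40 ± 0.81, adjusted p = 0.0736). DESeq2 called this difference (adjusted p = 0.016), as did the edgeR fit with a replicate block (adjusted p = 0.0392). The treated library with the highest Muc16, replicate 3, also had the highest stromal sum (9211 against 1370 to 1908 in the other 4) and the highest mesothelial sum (121 against 22.1 to 35.3). Without it the Muc16 difference was 1.59. Of 10 general epithelial markers 0 passed in either direction. Among colonocyte markers Cyp2c55 (-3.08) and Slc26a3 (-0.84) fell past the threshold and Slc37a2 (1.80) rose. Among enterocyte markers Fabp2 rose (0.77). The other tested members of these lists did not pass, and the part of these markers was not tested.

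Against WT colon, the treated BA mice had 3 of 6 mucins lower and 0 higher, beside 17.8% of 17569 genes lower and 21.8% higher. No WT mice were given antibiotics, so genotype and treatment cannot be told apart in this comparison. Muc16 fell by 4.19 ± 0.61 (SE) on the log2 scale (18.2-fold, adjusted p = 0.000418), Muc4 by 1.35 ± 0.23 (2.55-fold, adjusted p = 0.000997) and Muc13 by 0.82 ± 0.14 (1.77-fold, adjusted p = 0.000993). WT ranges were 88.6 to 205 normalised CPM for Muc4, 1580 to 2381 for Muc13 and 30.0 to 90.8 for Muc16. Treated values lay below these ranges, and the share of all genes without overlap is not given here. All 3 were called in each of the 9 fits that left out 1 library. Muc2 differed by -0.35 ± 0.23, Muc1 by 0.60 ± 0.52 and Muc20 by -0.90 ± 0.37 (adjusted p = 0.0729), none of which passed. All 10 epithelial markers rose and 6 of 8 colonocyte markers fell in this comparison, and their part was not tested. With epithelial scaling, beside a median of all genes of -1.03, 5 mucins passed. That count also lacks the share of all genes called and is not read as a result about mucins. This comparison shares its treated libraries with the preceding one and its WT libraries with the other day 30 comparisons.

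**Figure D3:**
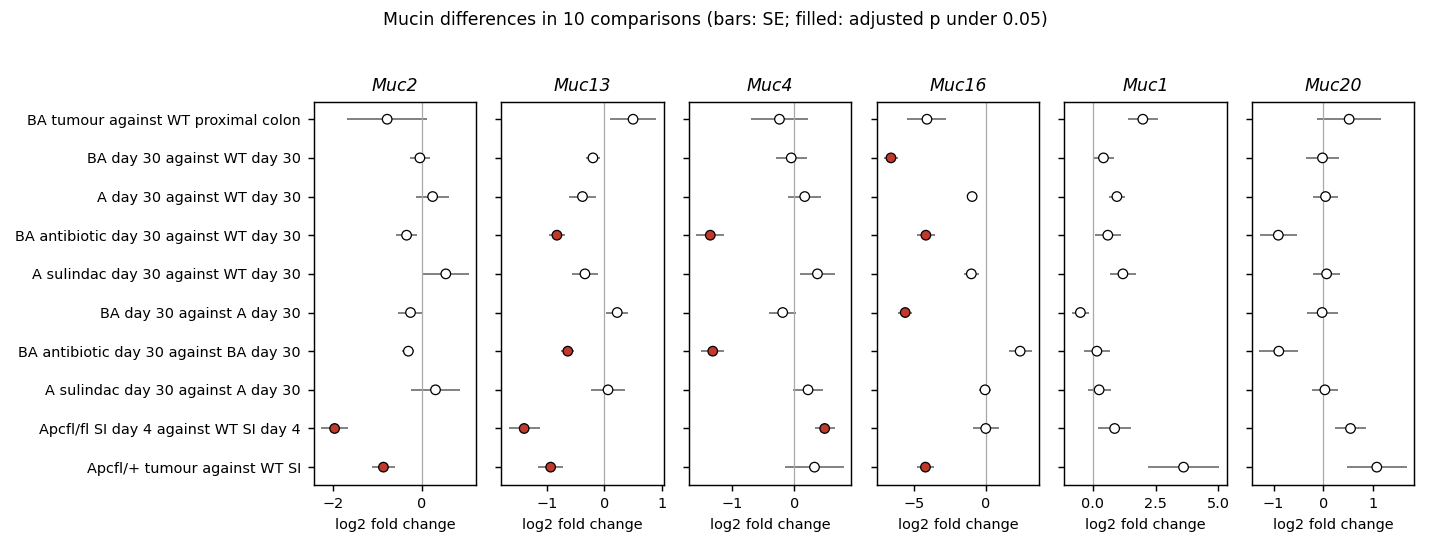
Log2 fold change of each mucin (columns, each with its own axis) in 10 comparisons (rows), with bars of 1 SE and filled points at an adjusted p under 0.05 in edgeR. Muc16 is filled in 4 rows, all to the left of 0, Muc13 in 4 rows to the left of 0, and Muc1 and Muc20 in none.

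In endpoint BA tumours, the labelled primary tumours of the proximal colon, 0 of 6 mucins rose and 0 fell by edgeR, where 7.46% and 5.71% of 19188 genes did. At an unadjusted p under 0.05 there were 2, Muc1 and Muc16, and DESeq2 called both. The shares of all genes on these measures are not given here. Muc1 was read at 1.32, 1.46, 1.62 and 4.01 normalised CPM in the tumours and 0.288, 0.381 and 0.881 in WT colon, ranges that did not overlap (log2 fold change 1.99 ± 0.60, adjusted p = 0.0605 by edgeR and 0.0106 by DESeq2). It rested on 23 to 40 reads per tumour. As TPM, Muc1 ran from 1.32 to 2.16 in the tumours and from 0.251 to 0.842 in WT. Without tumour replicate 2, the highest in normalised CPM, the Muc1 difference was 1.45. Muc16 was read at 0.162, 0.575, 0.989 and 4.73 in the tumours, a range that overlapped the scattered WT values of 1.35, 6.29 and 69.9 (log2 fold change -4.11 ± 1.36, adjusted p = 0.0805 by edgeR and 0.0486 by DESeq2). Without WT replicate 2 the Muc16 difference was -1.28, and without tumour replicate 2 it was -5.51 and passed (adjusted p = 0.0309).

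Muc2 varied more among the tumours than between the groups. Tumour replicate 1 held 18902 normalised CPM and the other 3 held 3040 to 5393, against 4330 to 22018 in WT colon (log2 fold change -0.78 ± 0.89, adjusted p = 0.619). In the fits that left out 1 library the Muc2 difference ranged from -1.72 to -0.14. Muc13 was read at 623 to 1697 in tumours and 626 to 835 in WT (log2 fold change 0.49 ± 0.40), and Muc4 at 31.0 to 126 and 54.8 to 108 (log2 fold change -0.24 ± 0.45). Muc20 differed by 0.51 ± 0.64. Beside these values, 5 of 10 stromal and 6 of 10 immune markers rose and 4 of 8 smooth muscle and 4 of 8 colonocyte markers fell, and their part in the mucin values was not tested.

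Acute APC loss in the small intestine lowered the 2 abundant mucins and raised Muc4. In 10 Apcfl/fl samples Muc2 had a lowest, median and highest value of 116, 339.5 and 423 normalised CPM, and in 6 WT samples 521, 1054 and 2036. The groups did not overlap, with a log2 fold change of -1.96 ± 0.31 (SE), a 3.88-fold decrease (adjusted p = 5.23e-05, edgeR). Muc13 ran from 606 to 2172.5 with a median of 1182 in Apcfl/fl and from 1620.5 to 5694 with a median of 3073 in WT, so that some libraries overlapped (log2 fold change -1.39 ± 0.27, adjusted p = 0.000362). Muc4 ran from 47.3 to 101 with a median of 74.1 in Apcfl/fl and from 38.3 to 77.6 with a median of 48.4 in WT (log2 fold change 0.49 ± 0.16, adjusted p = 0.0171). Thus 1 of 6 rose (background 27.5% of 17536 genes) and 2 fell (background 26.7%). All 3 calls held in each of the 16 fits that left out 1 library, the shallow Apcfl/fl replicate 1 among them.

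Muc16 was at or near the limit of detection in both day 4 groups. It had 0 reads in Apcfl/fl replicates 1, 2 and 10, which allows up to 5.8, 0.187 and 0.168 CPM at their depths (3 reads, counting error only), and at most 2.72 normalised CPM elsewhere, against 0.0883 to 1.87 in WT (log2 fold change 0.00 ± 0.91). Muc1 was under 1.5 normalised CPM in every library but Apcfl/fl replicate 5, at 7.95. That library also had the highest summed mesothelial (165), stromal (3368) and gastric (210) marker levels of its group; without it the Muc1 difference of 0.87 ± 0.67 turned to -0.40, and in neither case did it pass. Muc20 differed by 0.54 ± 0.31 (adjusted p = 0.155), and with epithelial scaling, under which the median of all genes was 0.38, by 0.93 (adjusted p = 0.0195). All 8 enterocyte markers fell in the same comparison, and their part in the mucin values was not tested.

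Tumours of Apcfl/+ mice had less Muc2, Muc13 and Muc16 than WT SI. Muc16 was read at 0.142, 0.417, 0.461, 0.523 and 0.55 normalised CPM in the tumours and 1.57, 9.09 and 11.4 in WT, without overlap (log2 fold change -4.21 ± 0.61, SE, an 18.6-fold decrease, adjusted p = 0.000494, edgeR). Muc13 was read at 678, 733, 796.5, 839 and 1032 against 1214, 1252 and 1880.3 (log2 fold change -0.93 ± 0.21, adjusted p = 0.00495). Muc2 was read at 874, 951, 1187, 1306 and 1481 against 1547.5, 1809 and 2555 (log2 fold change -0.87 ± 0.25, adjusted p = 0.0162). The highest tumour and lowest WT values of Muc2 lay close together. Without WT SI replicate 3 the Muc2 difference was -0.62 and no longer passed (adjusted p = 0.0846, edgeR). Of 6 mucins 3 passed the test in either direction, beside 61.5% of 20567 genes. Without tumour replicate 2, which nearly lacked enterocyte markers, Muc16 differed by -4.31, Muc13 by -0.88 and Muc2 by -0.92, and all still passed.

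Muc1 was uneven among these tumours, at 22 and 8.6 normalised CPM in replicates 5 and 2 and 0.425 to 0.999 in the other 3, against 0.39 to 0.707 in WT. The edgeR difference of 3.62 ± 1.43 on the log2 scale did not pass (adjusted p = 0.0528), and DESeq2 called it (adjusted p = 0.0112). Without replicate 5 it was 2.34. Replicate 2, with high Muc1, was the library nearly devoid of enterocyte markers. Muc4 ran from 18.5 to 103 in tumours and 27.5 to 65.0 in WT (log2 fold change 0.33 ± 0.48), and Muc20 differed by 1.07 ± 0.60 (adjusted p = 0.153). Stromal markers moved with the comparison, 9 of 10 higher, and 5 of 10 epithelial markers were higher and 1 lower. Among enterocyte markers Lct (-4.06), Sis (-3.20), Fabp2 (-2.51) and Apob (-2.11) fell past the threshold. Fabp1, Apoa1, Apoa4 and Alpi did not pass. The part of all these markers in the mucin values was not tested.

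Whether tumour effects differed between models was tested with an interaction term. The effect in BA tumours minus that in Apcfl/+ tumours passed for 1 of 6 mucins, Muc13, with a difference of 1.45 ± 0.43 (SE) on the log2 scale (adjusted p = 0.0171, edgeR), where 39.7% of 21668 genes passed in either direction. The term sets 0.49 in BA tumours against -0.93 in Apcfl/+ tumours, and the models also differ in gut region and strain, which cannot be told apart here. Without WT proximal colon replicate 3 the adjusted p was 0.0529 and without WT SI replicate 2 it was 0.0836. The effect in BA tumours minus that in BA colon at day 30 passed for 0 of 6 by edgeR and DESeq2, with 0 and 1 at an unadjusted p under 0.05, beside 16.3% of 20637 genes; the Muc16 term was 2.36 ± 1.57 and the Muc1 term 1.53 ± 0.74.

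Beyond the 6 members, 7 of 10 other listed mucin genes are in the table, and few were expressed. Muc3, a membrane mucin of enterocytes, moved in the other direction from Muc16 in BA colon, at 3660 to 5530.5 normalised CPM against 2358 to 3530 in WT (log2 fold change 0.71 ± 0.15, adjusted p = 0.00182, edgeR), and at 4469 to 5206 with antibiotics. In A colon Muc3 was at 2178 to 2570. All 10 epithelial markers also rose in BA colon against WT, by 0.64 (Cldn7) to 2.72 (Krt18) on the log2 scale. Their part in the Muc3 difference was not tested. Muc3a differed by 0.22 ± 0.08 there (adjusted p = 0.0395, edgeR), with overlapping ranges. Muc3 fell in the Apcfl/fl comparison (log2 fold change -1.49 ± 0.44) and in Apcfl/+ tumours, at 88.1 to 278 against 710 to 907 (-2.34 ± 0.33, adjusted p = 0.000428). Muc6 and Muc5ac, the gel-forming mucins of the stomach, were highest in Apcfl/+ tumours, except in replicate 2. Muc6 was at 362, 11.9, 359, 585 and 565 normalised CPM in tumour replicates 1 to 5 and 3.91 to 5.02 in WT SI (log2 fold change 6.26 ± 1.15, adjusted p = 0.00168). Muc5ac had 330, 0, 283, 127 and 107 reads in the tumours and 0, 0 and 1 in WT SI. The gastric epithelial list holds both of these genes; its other 6 members, Gkn1, Gkn2, Tff1, Tff2, Atp4a and Pgc, also rose in that comparison. Muc5b fell (-2.20 ± 0.37, adjusted p = 0.00105).

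**Figure D4:**
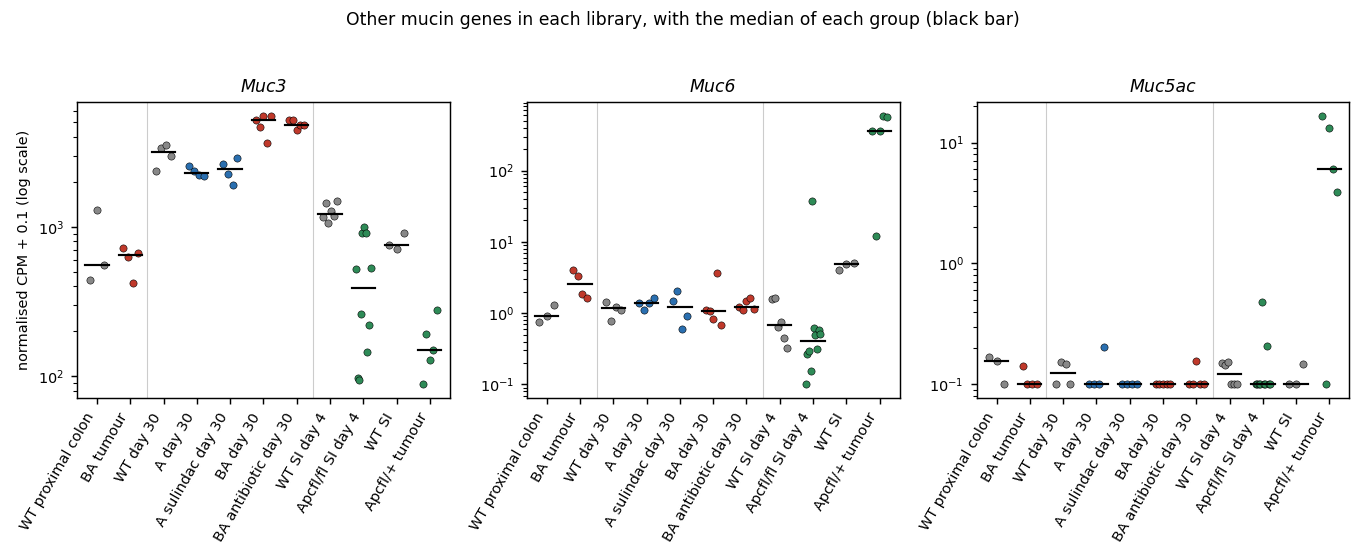
Normalised CPM plus 0.1 (log axis) of Muc3, Muc6 and Muc5ac in each of the 53 libraries with the median of each group as a black bar. Muc6 reaches 585 in Apcfl/+ tumours and Muc3 is highest in both BA groups at day 30.

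Goblet partners are 16 genes that direct goblet cell fate or are packed and secreted with Muc2. In BA colon at day 30, 6 rose and 3 fell, beside 25.8% and 29.3% of all genes, with a list median of 0.11 on the log2 scale beside -0.03 for all genes. Sytl2, which acts in granule release, rose most (1.29), Bcas1 and the lectin Zg16 rose by 1.23 and 1.11, and the antimicrobial Retnlb fell by 2.89. With antibiotics against untreated BA 0 rose and 1 fell, the transcription factor Foxa3 (-0.58, adjusted p = 0.0178), beside 4.53% and 8.5% of all genes. After acute APC loss 2 rose and 8 fell, beside 27.5% and 26.7% of all genes, with a list median of -0.79 beside 0.00; the calcium-activated channel regulator Clca1 fell by 2.16 and the Fc-binding protein Fcgbp by 1.81, whereas Foxa3 rose by 1.58 and Spdef by 0.47. In Apcfl/+ tumours 7 rose and 3 fell, where 61.5% of all genes passed in either direction: Clca1 (-1.44), Fcgbp (-1.05) and Zg16 (-1.00) fell as Muc2 did, and Retnlb rose by 6.22. In BA tumours 0 rose and 2 fell, Klk1 (-2.98) and Guca2a (-2.19), beside 7.46% and 5.71% of all genes.

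The enzymes that build mucin O-glycans are 24 genes, of which 23 could be tested. In BA colon 14 rose and 2 fell, beside 25.8% and 29.3% of all genes, with a list median of 0.58 beside -0.03. All 10 epithelial markers rose in the same comparison, and the shift of -1.05 that epithelial scaling gives the median of all genes is larger in size than this list median. Gcnt1, a core 2 branching enzyme, rose by 1.75, the sialyltransferase St3gal6 by 1.51 and the core 1 synthase C1galt1 by 1.21, whereas B3gnt6, the core 3 synthase, fell by 0.56. With antibiotics against untreated BA 0 rose and 13 fell, beside 4.53% and 8.5% of all genes (list median -0.33 beside 0.03), among them Gcnt1 (-2.06), the fucosyltransferase Fut2 (-1.16) and St3gal6 (-0.98). After acute APC loss 3 rose and 10 fell, beside 27.5% and 26.7% of all genes, from St3gal4 at -2.23 to Fut2 at 2.42, and in Apcfl/+ tumours 9 rose and 1 fell, beside 61.5% of all genes in either direction, from St3gal4 at -2.46 to Fut2 at 5.05. BA tumours had 1 higher, Gcnt4 (1.53), and 1 lower, St6galnac2 (-1.07), beside 7.46% and 5.71% of all genes. In A colon against WT, 0 of these enzymes and 0 of the goblet partners passed.

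Over the 29 colon libraries the genes with the most similar log2 CPM to each mucin were sought among 10576 genes, as a description across libraries that share groups and depth. Those most like Muc16 were Acpp (Pearson r = 0.921, Spearman rho = 0.901), Gsdmc2 (0.909 and 0.867) and Sh3rf2 (0.908 and 0.88). Muc2 was most like Ptprn2 (0.897 and 0.699), Slc12a8 (0.863 and 0.671) and the goblet regulator Spdef (0.851 and 0.715). Muc13 was most like Slc44a4 (0.855), Tmem50b (0.826) and Mep1b (0.822), and Muc4 most like Fyb2 (0.824), Zmynd8 (0.778) and Dusp16 (0.776). For Muc20 the highest was Muc4 itself (0.761), which it overlaps by 627 exonic bases. Muc1 was most like Socs3 (0.813), Bcl6 (0.801) and Pfkfb3 (0.75). Among the members, Muc2 and Muc13 had an r of -0.411 and Muc4 and Muc13 of 0.443.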

How the data were processed

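RNA of undissociated mouse proximal colon, small intestine and tumour tissue was sequenced as paired 36-base reads (TruSeq RNA v2). According to their methods, the authors trimmed reads with Trim Galore 0.6.4, aligned them to GRCm38 with HISAT2 2.1.0 and counted them on Ensembl genes with featureCounts 1.6.4, and they deposited raw counts per gene without normalisation in 1 table, of which 0 columns were left out. Strand setting and multi-mapped reads were not given in the sources used here.

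Symbols came from GENCODE M21 (55240 of 55421 rows matched). Each of 10 comparisons was fitted alone on the counts with edgeR 4.0.16 (filterByExpr, TMM scaling, two-sided quasi-likelihood test) in R 4.3.3. The p-values were adjusted over all genes tested (Benjamini-Hochberg, threshold 0.05). SE was derived from that test, as the size of the log2 fold change divided by the square root of its F statistic. All 6 mucins passed the low-count filter in all 10 comparisons. Differences between effects were 2 interaction terms. Normalised CPM used TMM factors over all 53 libraries, and TPM used union exon lengths. The fit was tested on simulated data. Alternatives were RLE scaling, no filter, scaling to 10 epithelial markers, a replicate block, all 5 day 30 groups in 1 fit, DESeq2 1.42.0 and leaving out each library. Equal replicate numbers stand for different mice and did not pair the samples. Totals ran from 516985 to 32824795 reads, so 3 reads correspond to 5.8 CPM in the shallowest library.

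The members and lists were chosen with earlier results of these data known. By the rule set for naming genes, the mucins were given in every comparison, those that did not pass singly or by their range, and of other lists the members with the largest and smallest change and up to 3 more; likeness was ranked among genes with a mean log2 CPM of at least 3. Values of Gm13394 were named after they were seen. Muc12, Muc17 and Muc21 were not analysed here. Python 3.11.15 was used for summaries.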

Additional observations from a re-analysis of the deposited data

Results flagged for a closer look

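Of 54 searches for a mucin value far from the rest of its group, 7 found one, where chance gives about 1 in 20. Muc2 was far above its group in A replicate 4 (8463 normalised CPM), A sulindac replicate 2 (13402) and BA tumour replicate 1 (18902). The summed level of the 16 goblet partners in those libraries was 11073, 10996 and 9459, inside the range of the other libraries of its group in A and A sulindac and above the 5620 to 8085 of the other tumours. Muc1 in normalised CPM was far above its group in Apcfl/fl replicate 5 (7.95), BA tumour replicate 2 (4.01) and A sulindac replicate 2 (3.54), the last of which is also the library with high Muc2. As TPM, Muc1 ran only from 1.32 to 2.16 among the BA tumours, with a median of 1.84, so no tumour stood far above the others on that scale. The scales differed for tumour replicate 2, for a reason that was not tested. Muc16 stood high in Apcfl/fl replicate 4 (2.72 normalised CPM, 48 reads). The Muc13 effect differed between BA tumours and Apcfl/+ tumours by 1.45 on the log2 scale in an interaction test.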

How the results depend on the processing

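Each value for a mucin was recomputed under the other settings, which gave 366 values, of which 343 kept their side of the threshold, 2 lost the call, 20 gained one and 1 reversed. Scaling to epithelial markers raised the number of mucins called from 1 to 5 in BA day 30 against WT and from 3 to 5 in BA antibiotic against WT. In BA against A it rose from 1 to 6, and Muc13 turned to -0.66. The scaling itself moved the median of all genes to -1.05, -1.03 and -0.99 there. The share of all genes called under it is not given, so these counts are not read as results about mucins. In BA tumours 2 mucins were called without a filter and 2 with DESeq2, against 0. The share of all genes called under either setting is not given, so these counts are likewise not read as results about mucins. With all 5 day 30 groups in 1 fit, 1 mucin rather than 2 was called for antibiotics against untreated BA (Muc13, adjusted p = 0.0565). The cause of these moves was not tested.

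Leaving out 1 library gave 0 to 1 mucins called in BA tumours and in each of the 2 interaction terms, 1 to 2 in BA against WT and against A, 2 to 3 for antibiotics against untreated BA, 2 to 4 in Apcfl/+ tumours, 3 throughout in BA antibiotic against WT and in Apcfl/fl, and 0 throughout in the A and sulindac comparisons. Of 731 such single values 719 kept their side, 3 lost and 9 gained a call, and 0 called values reversed. The sign turned in 62 of them, over 23 differences, 0 of which were called. The shares of all genes called in the fits that left out 1 library are not given here.

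A replicate block, though numbers do not pair these mice, gave 0 mucins in BA tumours, 1 in BA against WT, 3 for antibiotics against untreated BA (Muc16 at 2.35 added) and 2 in Apcfl/+ tumours (Muc2 at -0.64, adjusted p = 0.129). The shares of all genes called with the block are not given here. Depth limits Muc1, Muc20 and, in SI at day 4, Muc16.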
